A study of Mus musculus with 11 samples.

Results

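The interferon response was followed through 46 genes that type I or type II interferon is known to induce. They were taken by symbol from a deposited table of 23444 rows. All 46 were found there, and all 46 passed the filter on low values, which left 11442 genes. The values come from 11 RNA-seq libraries in 7 groups of mouse Kit+ bone marrow cells, all labelled C57BL/6. The groups were 1 library labelled c-Fos-/-Dusp1-/- BCR/ABL with imatinib, 1 labelled c-Fos-/-Dusp1-/- BCR/ABL without drug, 2 of BCR/ABL cells with imatinib+DFC+BCI, 2 with DFC+BCI, 2 with imatinib alone, 2 of untreated BCR/ABL cells, and 1 vector control. Drugs were given for 4 h.

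BCR/ABL is the fusion kinase of chronic myeloid leukaemia and imatinib inhibits it. DFC and BCI were used in the study as inhibitors of FOS and of Dusp1. Kit is a surface receptor of blood stem and progenitor cells. The cells were selected on beads for Kit, cultured in mSCF, FLT3, IL-3 and IL-6, transduced with a retrovirus that carries BCR/ABL and YFP, and sorted for YFP. The sources used here do not describe the preparation of the vector control. The labelled-deleted cells came from ROSACreERT2c-Fosfl/flDusp1-/- mice, in which Dusp1 is deleted in every cell and c-Fos is deleted only once the Cre is switched on by a tamoxifen-type drug. The sources used here do not say when or whether that was done. The labels do not say that duplicates came from different animals, so the p-values below may measure technical spread only.

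Interferons bind receptors that activate the kinases Jak1, Tyk2 and Jak2, which phosphorylate STAT proteins. Type I interferon acts mainly through ISGF3, a complex that includes STAT2 and IRF9 and binds the interferon-stimulated response element (ISRE). Type II interferon acts mainly through STAT dimers that bind the gamma-activated site (GAS). The products block viral RNA and protein, sense nucleic acid, attack vacuoles that hold microbes, and feed back on the pathway.

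Levels are in FPKM as deposited, a count of fragments divided by transcript length and by library size. The FPKM of a library summed to 459559 to 529427, and 10763 to 10987 genes reached 1 FPKM. Read depth is unknown, so no counting interval can be given. Duplicates correlated at 0.986 to 0.990 across genes. Fos had 15.9 and 21.6 FPKM in the 2 libraries labelled deleted, against 4.81 to 7.42 FPKM in the 4 BCR/ABL libraries with imatinib or no drug. Dusp1 had 28.1 and 35.7 FPKM in the libraries labelled deleted, against 7.56 to 8.63 FPKM in the same 4 libraries. Kit had 5.80 to 12.4 FPKM in the 10 BCR/ABL libraries, against 34.5 FPKM in the vector control. In the groups given DFC+BCI, Fos had 28.0 to 32.4 FPKM and Dusp1 102 to 133 FPKM, and in the vector control they had 125 and 16.9 FPKM. Where labelled deleted, both genes were thus above BCR/ABL cells with imatinib or no drug and below the groups given DFC+BCI. Against the vector control, Fos was lower there and Dusp1 higher. Neither gene was absent where labelled deleted, and a value per gene does not show which exons the fragments came from.

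The summed level of the 46 genes was 840 FPKM in the library labelled deleted with imatinib and 923 FPKM in the one without drug. It was 1720 and 1692 FPKM with imatinib+DFC+BCI, 1791 and 1745 FPKM with DFC+BCI, 1799 and 1829 FPKM with imatinib, and 2194 and 2110 FPKM in untreated BCR/ABL cells. The vector control had 831 FPKM. The untreated BCR/ABL libraries thus stood above all drug-treated ones, and the vector control and the libraries labelled deleted lay far below. By group mean, untreated BCR/ABL cells had the highest level of 35 of the 46 genes. In bulk samples such as these, fewer cells of a type and less RNA per cell cannot be told apart.

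**Figure D1:**
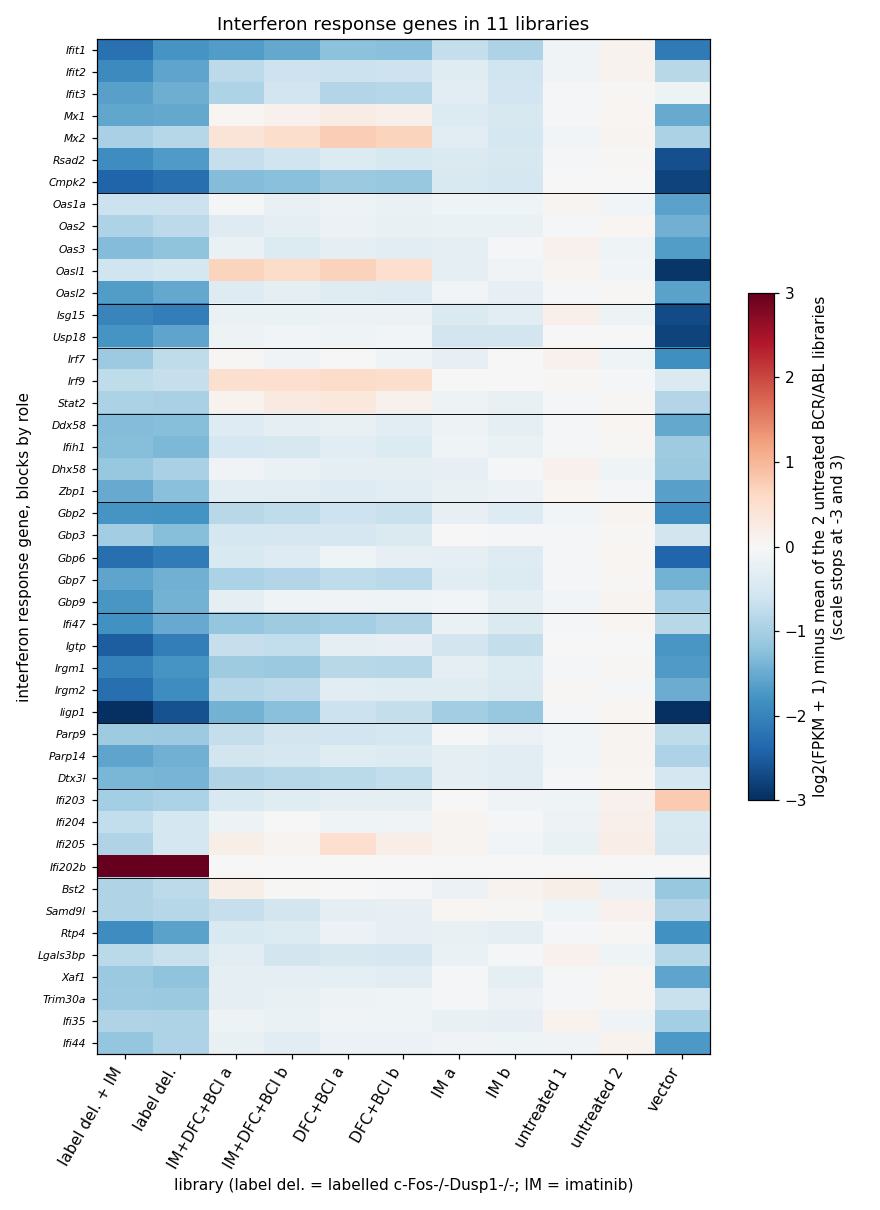
Level of each of the 46 interferon response genes (rows, in blocks by role) in each of the 11 libraries (columns), as the log2(FPKM + 1) value minus the mean of the 2 untreated BCR/ABL libraries; blue is below and red above that mean. The vector control and the 2 libraries labelled deleted are blue for most genes, the drug-treated libraries are pale blue, and Mx2, Oasl1 and Irf9 are red with DFC+BCI.

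The ISRE core was searched in the genes' promoters as GAAA, any 2 bases and GAAA, on either strand, and the GAS as TTC, any 3 bases and GAA, which reads the same on both strands. RefSeq promoter windows of 300 bases (250 before to 50 after the start, GRCm38.p6) were found for 33 of the 46 genes. The ISRE core was present for 19 of these 33 (57.6%), against 3.99% of all 27025 genes with a window. The GAS letters were present for 8 of 33 (24.2%), against 9.55% of all genes. A match is a description of the letters and not a site shown to be bound.

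The 150 bases before the start are shown for 5 genes that differ in their response to the drugs below. Ifit1 fell most with DFC+BCI, Igtp and Irgm2 fell in all 3 comparisons with untreated cells, Isg15 passed no test, and Oasl1 rose with DFC+BCI. Capitals mark ISRE core and GAS matches.
Ifit1 (chr19:34640739-34640888, plus strand): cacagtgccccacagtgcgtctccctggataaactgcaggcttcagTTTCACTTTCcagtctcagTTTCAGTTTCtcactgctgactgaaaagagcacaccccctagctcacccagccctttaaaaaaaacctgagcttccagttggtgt
Isg15 (chr4:156200819-156200968, minus strand): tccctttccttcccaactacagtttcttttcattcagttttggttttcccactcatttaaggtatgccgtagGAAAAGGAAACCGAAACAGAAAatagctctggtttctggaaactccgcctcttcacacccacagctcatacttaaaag
Igtp (chr11:58199406-58199555, plus strand): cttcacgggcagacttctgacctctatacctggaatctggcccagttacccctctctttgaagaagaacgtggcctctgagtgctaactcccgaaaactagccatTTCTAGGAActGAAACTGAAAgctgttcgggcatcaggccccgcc
Irgm2 (chr11:58214827-58214976, plus strand): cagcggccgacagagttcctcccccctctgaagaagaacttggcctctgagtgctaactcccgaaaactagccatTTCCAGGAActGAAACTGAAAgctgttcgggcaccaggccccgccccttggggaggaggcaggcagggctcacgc
Oasl1 (chr5:114923090-114923239, plus strand): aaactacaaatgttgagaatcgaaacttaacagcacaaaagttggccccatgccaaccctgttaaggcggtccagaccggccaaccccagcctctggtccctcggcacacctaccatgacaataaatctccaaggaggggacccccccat
Ifit1 has ISRE cores that begin 104 and 85 bases before the start, both on the other strand. Isg15 has 3 overlapping cores that begin 78, 72 and 66 bases before it. Igtp and Irgm2 each have a GAS match that begins 11 bases before the ISRE core, 45 and 34 bases before the start in Igtp and 75 and 64 in Irgm2. Oasl1 has neither match in the window shown. A window without a match was also found for genes that fell with DFC+BCI, among them Cmpk2 (-1.13), Ifi47 (-0.95) and Dtx3l (-0.77, all log2 fold changes).

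Imatinib was compared with no drug in BCR/ABL cells. Of the 46 genes, 9 fell and 0 rose (limma, Benjamini-Hochberg adjusted p under 0.05 over all genes kept), where 1.63% of all genes fell and 0.481% rose. At an unadjusted p under 0.05, 25 fell and 0 rose. The share of all genes at that unadjusted threshold was not counted, so these 25 have no background to be set against. The genes that fell were Iigp1, Ifit1, Igtp, Usp18, Cmpk2, Rsad2, Mx1, Irgm2 and Gbp7, which belong to the GTPases, the antiviral effectors and the ISG15 system. The median log2 fold change of the 46 was -0.20, and that of all genes tested was -0.01. The count was 3 without imatinib library b, 4 without imatinib library a, 4 and 5 without either untreated library, 5 without either DFC+BCI library, and 6 without either library of all 3 drugs. Iigp1 was called in all 13 alternative settings, Usp18 and Igtp in 12, Ifit1 and Cmpk2 in 9, Rsad2 in 5, Irgm2 in 2, and Mx1 and Gbp7 in 1. The Cmpk2 call was lost without either imatinib library and without 1 of the untreated libraries, and those of Rsad2, Irgm2, Mx1 and Gbp7 without any one of the imatinib or untreated libraries.

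DFC+BCI was compared with no drug in the same cells. Here 24 of the 46 genes fell and 3 rose, where 18.4% of all genes fell and 17.8% rose. The falls included all 5 IRG GTPases (Ifi47, Igtp, Irgm1, Irgm2, Iigp1), all 3 of Parp9, Parp14 and Dtx3l, 5 of 7 IFIT, Mx and viperin effectors and 3 of 4 sensors. The 3 that rose were Mx2, Oasl1 and Irf9. The median log2 fold change of the 46 was -0.27, and that of all genes tested was -0.03. Of the 27 calls 20 held in all alternatives tried, and all 27 kept their sign. Those of Ddx58, Igtp, Xaf1, Rtp4 and Lgals3bp were lost without either DFC+BCI library, that of Parp14 without library b, and that of Ifi203 without any of several libraries.

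Imatinib+DFC+BCI was compared with no drug, and 29 of the 46 genes fell while the same 3 rose, where 15.6% of all genes fell and 17.2% rose. The median log2 fold change of the 46 was -0.34, and that of all genes was -0.01. Of these 32 calls 23 held in all alternatives. Those of Oas2, Oasl2, Ddx58 and Ifi203 were lost without 3-drug library a, those of Mx2 and Lgals3bp without library b, and those of Ifi44, Xaf1 and Trim30a without either. The 3 comparisons share the untreated libraries. Against imatinib alone, the 3 drugs left 14 genes lower and 6 higher (Mx2, Oasl1, Mx1, Irf9, Usp18 and Stat2), where 16% of all genes fell and 18.6% rose. The median was -0.14 for the 46 genes and 0.00 for all genes.

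Imatinib+DFC+BCI was also compared with DFC+BCI. None of the 46 passed the test in either direction (0 higher and 0 lower with limma), where 0.00874% of all genes rose and 0.105% fell. At an unadjusted p under 0.05, 10 were lower and 0 higher, with the share of all genes at that threshold not counted. The smallest adjusted p-values were 0.0644 for Iigp1, 0.0675 for Irgm2 and 0.0871 for Igtp, all IRG GTPases. The interaction asks whether the effect of imatinib differs with and without DFC+BCI, and again 0 of the 46 passed in either direction, where 0.0874% of all genes had a higher value and 0.0612% a lower one. At an unadjusted p under 0.05 there were 12, of which 11 were positive, and here too the share of all genes was not counted. The smallest adjusted p was 0.0727, for Usp18 (interaction 0.54, SE 0.07).

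**Figure D2:**
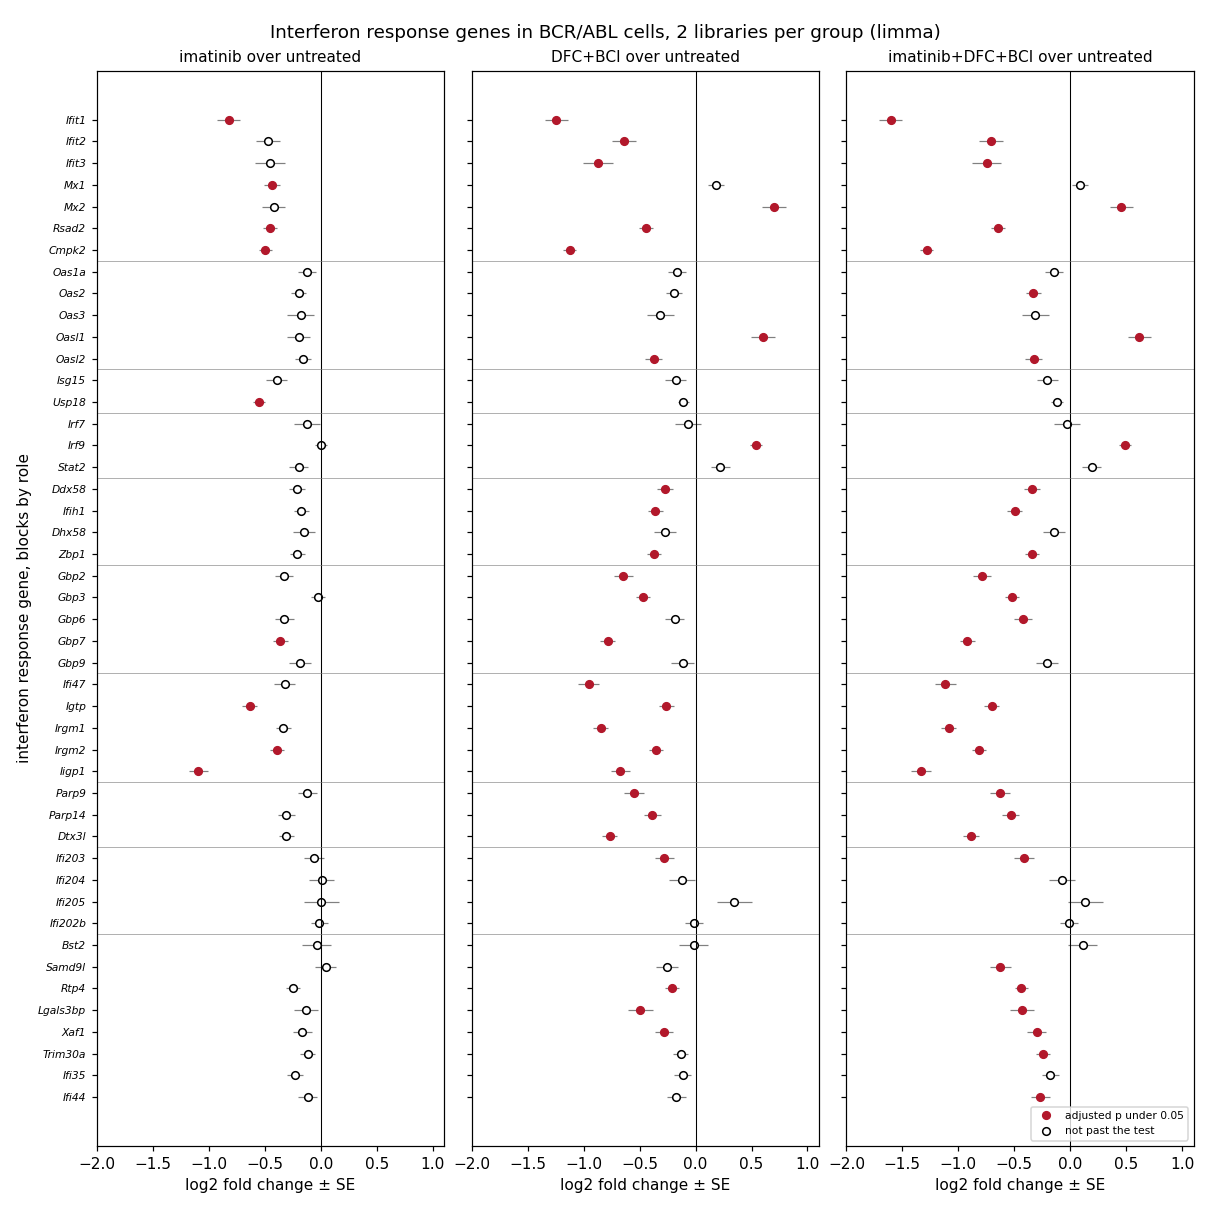
Log2 fold change with its standard error (horizontal axis) of each of the 46 genes (vertical axis, in blocks by role) in BCR/ABL cells with imatinib, DFC+BCI, or imatinib+DFC+BCI over untreated cells, 2 libraries per group; filled red points have an adjusted p under 0.05. Red points number 9, 27 and 32 from left to right, and those right of 0 in the last 2 panels are Mx2, Oasl1 and Irf9.

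Among the antiviral effectors, Ifit1, which binds viral RNA that lacks host cap marks, had the largest change with each drug treatment against untreated cells. It had 8.71 and 9.76 FPKM with imatinib+DFC+BCI, 12.3 and 12.0 with DFC+BCI, 18.0 and 15.3 with imatinib, and 28.1 and 32.3 in untreated cells. The 4 groups did not overlap and untreated cells were highest. Its log2 fold change over untreated cells was -1.61 with all 3 drugs (SE 0.10, adjusted p = 6.42e-05), -1.24 with DFC+BCI (SE 0.10, adjusted p = 0.000197) and -0.82 with imatinib (SE 0.10, adjusted p = 0.0129). The imatinib call held in 9 of 13 alternatives; it was lost without a filter, with only the groups compared, without imatinib library b and without 1 of the untreated libraries (adjusted p of up to 0.125). Ifit1 lies beside Ifit2 and Ifit3 on chromosome 19 (chr19:34550694-34650009, GENCODE vM21 on GRCm38). Ifit2 had 15.0 and 16.9 FPKM with all 3 drugs, 16.6 and 16.8 with DFC+BCI, 20.6 and 17.3 with imatinib, and 24.7 and 28.7 in untreated cells. Ifit2 and Ifit3 fell with DFC+BCI (-0.64 and -0.87) and with all 3 drugs (-0.71 and -0.75), and neither passed the test with imatinib alone (-0.47 and -0.45).

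Cmpk2, a mitochondrial nucleotide kinase, and Rsad2 (viperin), which makes a chain-ending nucleotide, are neighbours on chromosome 12 (chr12:26442746-26479837). Cmpk2 had 20.7 and 21.4 FPKM with all 3 drugs, 23.9 and 23.4 with DFC+BCI, 37.9 and 36.4 with imatinib, and 53.2 and 52.3 in untreated cells. Its duplicates lay close together and the 4 groups were separate. It fell with all 3 drugs (-1.28, SE 0.06), with DFC+BCI (-1.13, SE 0.06, adjusted p = 2.01e-05) and with imatinib (-0.49, SE 0.06, adjusted p = 0.00814). Rsad2 had 34.9 and 36.9 FPKM with all 3 drugs, 42.5 and 40.2 with DFC+BCI, 41.7 and 40.5 with imatinib, and 55.0 and 58.3 in untreated cells. The DFC+BCI and imatinib groups of Rsad2 overlapped each other and both lay below untreated cells. Rsad2 fell in all 3 comparisons with untreated cells (-0.64, -0.44 and -0.45 in the order above).

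Mx1 and Mx2 belong to the dynamin-like GTPases that trap viral parts, and lie together on chromosome 16 (chr16:97447035-97560900). The Mx1 allele of C57BL/6 mice is known to carry a deletion and to make no working protein, and the annotation lists Mx2 as a polymorphic pseudogene. Mx2 had 7.10 and 8.02 FPKM with all 3 drugs, 9.36 and 8.87 with DFC+BCI, 3.99 and 3.35 with imatinib, and 4.85 and 5.64 in untreated cells. Both DFC+BCI groups were above untreated cells, and the imatinib group was below. Mx2 rose with DFC+BCI (0.70, SE 0.11, adjusted p = 0.00251) and with all 3 drugs (0.46, SE 0.11, adjusted p = 0.0154). Mx1 had 29.8 and 31.3 FPKM with all 3 drugs, 33.5 and 31.8 with DFC+BCI, 21.5 and 20.4 with imatinib, and 27.4 and 30.1 in untreated cells. Mx1 fell with imatinib (-0.44, SE 0.07, adjusted p = 0.0311), a call that held in 1 of 13 alternatives, and was higher with all 3 drugs than with imatinib alone (0.52, SE 0.07, adjusted p = 0.00165).

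The OAS family makes an RNA messenger that activates an RNA-cutting enzyme, and its OAS-like members Oasl1 and Oasl2 lie together on chromosome 5 (chr5:114896936-114937915). These neighbours moved apart. Oasl1 had 47.2 and 43.1 FPKM with all 3 drugs, 47.9 and 41.8 with DFC+BCI, 23.5 and 27.1 with imatinib, and 30.8 and 27.5 in untreated cells. Both DFC+BCI groups were above both other groups. Oasl1, which in mice is known to restrain translation of Irf7, rose with DFC+BCI (0.60, SE 0.10, adjusted p = 0.00437) and with all 3 drugs (0.62, SE 0.10, adjusted p = 0.00435). Oasl2 had 49.1 and 52.7 FPKM with all 3 drugs, 49.4 and 49.0 with DFC+BCI, 60.5 and 54.1 with imatinib, and 62.3 and 66.0 in untreated cells. Oasl2 fell with DFC+BCI (-0.37, SE 0.07) and with all 3 drugs (-0.33, SE 0.07). Of Oas1a, Oas2 and Oas3, clustered elsewhere on that chromosome (chr5:120730333-120907521), Oas2 fell with all 3 drugs (-0.33) and no other change passed the test; Oas1a has close copies that may have shared its reads.

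Isg15 is a small protein joined to other proteins much as ubiquitin is, and Usp18 removes it and blocks the type I interferon receptor. Isg15 (chr4:156199424-156200818) had 146 and 145 FPKM with all 3 drugs, 149 and 148 with DFC+BCI, 124 and 132 with imatinib, and 186 and 152 in untreated cells. The untreated duplicates were far apart, and Isg15 passed no test (-0.39 with imatinib, SE 0.09, adjusted p = 0.0974). Usp18 (chr6:121245906-121270917) had 56.6 and 58.9 FPKM with all 3 drugs, 57.7 and 58.9 with DFC+BCI, 42.6 and 42.8 with imatinib, and 63.0 and 62.9 in untreated cells. Of these groups, imatinib stood alone at the low end. Usp18 fell with imatinib (-0.55, SE 0.05, adjusted p = 0.00405). It was higher with all 3 drugs than with imatinib (0.43, SE 0.05, adjusted p = 0.0011), and did not pass against untreated cells with DFC+BCI (-0.11) or all 3 drugs (-0.12).

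Of the 3 transcription factors, Irf9 was the one that passed a test against untreated cells. Irf9 (chr14:55603571-55610030), the DNA-binding part of ISGF3, had 46.0 and 46.2 FPKM with all 3 drugs, 48.1 and 47.7 with DFC+BCI, 32.4 and 32.7 with imatinib, and 33.3 and 31.8 in untreated cells. Both DFC+BCI groups were above the other groups, and imatinib and untreated cells overlapped. Irf9 rose with DFC+BCI (0.54, SE 0.05, adjusted p = 0.000403) and with all 3 drugs (0.49, SE 0.05, adjusted p = 0.00064). Stat2, the transactivating part of ISGF3, had 44.5 and 50.2 FPKM with all 3 drugs, 51.6 and 45.3 with DFC+BCI, 36.8 and 35.0 with imatinib, and 40.6 and 42.0 in untreated cells. Stat2 was higher with all 3 drugs than with imatinib (0.39, SE 0.09, adjusted p = 0.0125; lost without library b of either group, with an adjusted p of up to 0.0773), and passed in no comparison with untreated cells. Irf7, which amplifies interferon production, had 98.9 and 90.6 FPKM with all 3 drugs, 97.4 and 87.9 with DFC+BCI, 81.7 and 97.2 with imatinib, and 105 and 89.1 in untreated cells. Its groups overlapped and it passed no test.

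Among the sensors, Ddx58 (RIG-I) and Ifih1 (MDA5) detect viral RNA, Dhx58 (LGP2) tunes them, and Zbp1 binds Z-form nucleic acid. Ifih1 had 10.9 and 11.3 FPKM with all 3 drugs, 12.7 and 11.9 with DFC+BCI, 14.5 and 13.8 with imatinib, and 15.6 and 16.5 in untreated cells. Its 4 groups did not overlap, and its log2 fold change was -0.50 with all 3 drugs (SE 0.07), -0.36 with DFC+BCI (SE 0.07) and -0.17 with imatinib, which did not pass. Ddx58 and Zbp1 also fell with DFC+BCI (-0.27 and -0.37) and with all 3 drugs (-0.34 and -0.34). Dhx58 passed in no comparison.

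The GBP GTPases (guanylate-binding proteins) coat and break vacuoles that hold microbes. Gbp2 had 29.0 and 30.4 FPKM with all 3 drugs, 33.2 and 32.6 with DFC+BCI, 43.5 and 39.2 with imatinib, and 48.8 and 55.4 in untreated cells. Gbp7 had 12.6 and 13.3 FPKM with all 3 drugs, 14.6 and 14.1 with DFC+BCI, 20.3 and 18.8 with imatinib, and 24.8 and 26.1 in untreated cells. Both genes stepped up in that order of groups without overlap. Gbp2, Gbp3 and Gbp7, neighbours on chromosome 3 (chr3:142530342-142638008), fell with DFC+BCI (-0.64, -0.47 and -0.78) and with all 3 drugs (-0.79, -0.52 and -0.92), and Gbp7 fell with imatinib too (-0.36, adjusted p = 0.0456). Gbp6 and Gbp9, on chromosome 5, had log2 fold changes of -0.19 and -0.11 with DFC+BCI, which did not pass, and Gbp6 fell with all 3 drugs (-0.42). GBP genes are alike in sequence, so reads may have been divided among them.

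The IRG GTPases (immunity-related GTPases) attack vacuoles that hold parasites and bacteria, and are known chiefly as targets of type II interferon. Iigp1 had 8.29 and 9.50 FPKM with all 3 drugs, 15.0 and 14.3 with DFC+BCI, 11.1 and 10.3 with imatinib, and 23.0 and 24.9 in untreated cells. The 4 groups were separate, and imatinib lay below DFC+BCI. It had the largest fall of the 46 with imatinib (-1.09, SE 0.09, adjusted p = 0.00189), and fell with DFC+BCI (-0.67, SE 0.09, adjusted p = 0.00125) and with all 3 drugs (-1.33, SE 0.09, adjusted p = 6.31e-05). Igtp had 35.6 and 34.4 FPKM with all 3 drugs, 47.6 and 48.1 with DFC+BCI, 38.7 and 34.8 with imatinib, and 57.0 and 58.2 in untreated cells. Of these groups, imatinib and the 3 drugs overlapped at the low end for Igtp. Igtp fell by 0.63 with imatinib, 0.26 with DFC+BCI and 0.70 with all 3 drugs on the log2 scale.

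Irgm1 (chr11:48861968-48871683), which regulates the other IRG proteins, had another order. It had 40.9 and 39.7 FPKM with all 3 drugs, 48.2 and 47.4 with DFC+BCI, 72.1 and 65.3 with imatinib, and 84.7 and 89.0 in untreated cells. Ifi47 (chr11:49076587-49096974) had 27.8 and 29.8 FPKM with all 3 drugs, 30.9 and 33.9 with DFC+BCI, 54.9 and 46.8 with imatinib, and 61.4 and 66.0 in untreated cells. In both genes imatinib lay nearer to untreated cells than DFC+BCI did. Irgm1 and Ifi47 fell with DFC+BCI (-0.85 and -0.95) and with all 3 drugs (-1.09 and -1.12), and did not pass with imatinib (-0.33 and -0.32). Irgm2 had 16.6 and 17.6 FPKM with all 3 drugs, 24.1 and 23.7 with DFC+BCI, 23.9 and 22.7 with imatinib, and 31.4 and 30.2 in untreated cells. Irgm2 fell in all 3 comparisons with untreated cells (-0.81, -0.35 and -0.39 in that order of groups). The spans of Igtp and Irgm2 overlap on the same strand in the annotation (chr11:58199556-58222782), so the split of reads between them is uncertain.

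**Figure D3:**
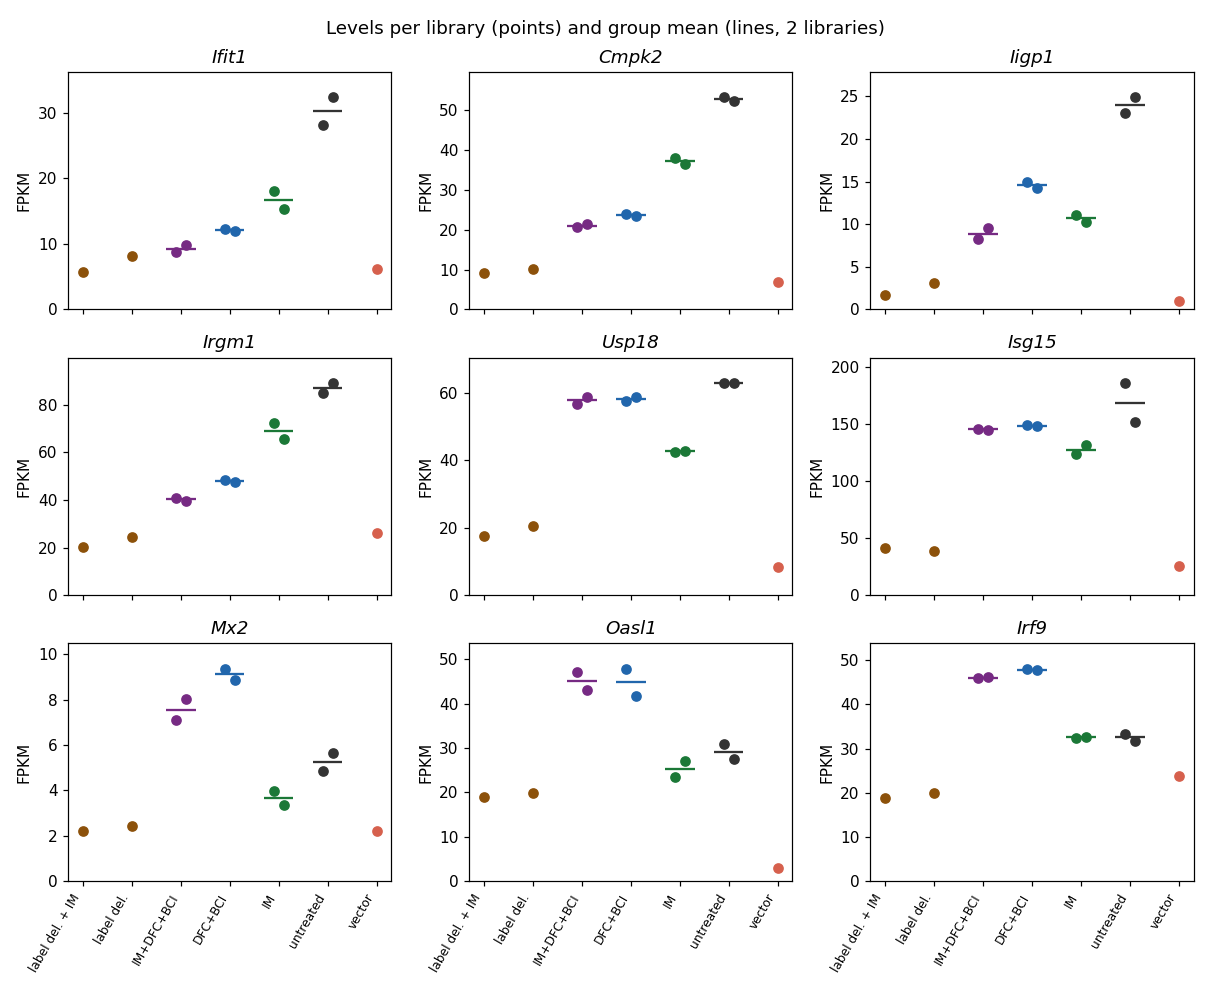
FPKM (vertical axis, from 0) of 9 genes in each library (points) of the 7 groups (horizontal axis; label del. is labelled c-Fos-/-Dusp1-/-), with lines for the mean of groups with 2 libraries. Ifit1, Cmpk2, Iigp1 and Irgm1 are highest in untreated BCR/ABL cells, and Mx2, Oasl1 and Irf9 are highest in the groups that received DFC+BCI. Usp18 is lower with imatinib than in the other groups with 2 libraries, and lower still in the groups with 1 library.

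Parp9 and Dtx3l form a ubiquitin ligase complex and Parp14 is an ADP-ribosyl transferase; their genes are neighbours on chromosome 16 (chr16:35832874-35972605). Dtx3l had 17.2 and 17.8 FPKM with all 3 drugs, 18.6 and 19.5 with DFC+BCI, 27.4 and 26.0 with imatinib, and 31.7 and 34.8 in untreated cells. The groups of Dtx3l did not overlap. All 3 genes fell with DFC+BCI (-0.55 for Parp9, -0.39 for Parp14 and -0.77 for Dtx3l) and with all 3 drugs (-0.63, -0.53 and -0.89), and none passed with imatinib (-0.12, -0.31 and -0.31). The Parp14 call with DFC+BCI was lost without DFC+BCI library b (adjusted p = 0.0507).

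The IFI200 genes lie in a cluster on chromosome 1 (chr1:173747293-174031810) and encode DNA-binding proteins of the nucleus and cytoplasm. Ifi203 fell with DFC+BCI (-0.28, adjusted p = 0.0425, held in 2 of 13 alternatives) and with all 3 drugs (-0.41, adjusted p = 0.0107), and Ifi204 and Ifi205 passed in no comparison. Ifi203 had 14.1 and 15.0 FPKM with all 3 drugs, 16.1 and 15.9 with DFC+BCI, 19.4 and 18.3 with imatinib, and 18.1 and 21.4 in untreated cells. Imatinib and untreated cells overlapped in Ifi203. Copies in this family are alike, so their reads may have been divided.

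Of the other 8 response genes, 3 fell with DFC+BCI (Lgals3bp, Xaf1 and Rtp4) and 6 with all 3 drugs (Samd9l, Rtp4, Lgals3bp, Xaf1, Ifi44 and Trim30a). Samd9l, known as a brake on growth of blood cells, had 24.0 and 26.4 FPKM with all 3 drugs, 32.7 and 33.0 with DFC+BCI, 41.2 and 40.1 with imatinib, and 35.7 and 43.4 in untreated cells. Of these groups the 3-drug group was lowest, and imatinib lay within the untreated range. Samd9l fell with all 3 drugs against untreated cells (-0.63, SE 0.10) and against imatinib (-0.67, SE 0.10). Bst2 (tetherin), which holds virus particles on the cell surface, and Ifi35 passed in no comparison. Bst2 was among the most abundant of the 46, at 208 to 267 FPKM in the 8 replicated libraries.

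Untreated BCR/ABL cells were set against the vector control, which has 1 library and so no replicate check and no test. A gene was counted if the mean of the higher side was at least 5 FPKM and each library of one side lay at least 1 in log2(FPKM + 1) from each of the other. By that rule 25 of the 46 genes were higher in BCR/ABL cells and 0 lower, where 3.32% of all genes were higher and 4.68% lower. The median log2 difference was 1.42 for the 46 genes and 0 for all genes, and 44 of the 46 were above 0. With imatinib the counts against the same vector library were 23 higher and 0 lower, where 2.53% of all genes were higher and 4.43% lower, with a median of 1.08.

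The widest differences from the vector control were in the genes below. Iigp1 had 23.0 and 24.9 FPKM in untreated BCR/ABL cells, against 1.00 in the vector control (log2 difference 3.64). Oasl1 had 30.8 and 27.5 FPKM in BCR/ABL cells, against 2.98 in the vector control (2.92). All 5 OAS genes, both genes of the ISG15 system and 4 of 5 IRG GTPases were counted as higher. Usp18 had 63.0 and 62.9 FPKM in BCR/ABL cells, against 8.25 in the vector control (2.79). Cmpk2 had 53.2 and 52.3 FPKM in BCR/ABL cells, against 6.82 in the vector control (2.78). Isg15 had 186 and 152 FPKM in BCR/ABL cells, against 25.5 in the vector control (2.68). None of Parp9, Parp14 and Dtx3l (0.76, 0.93 and 0.52) or of the IFI200 genes was counted. Ifi203 was the one gene with its highest level in the vector control, at 18.1 and 21.4 FPKM in BCR/ABL cells, against 34.5 in the vector control (-0.78). Irf9 (0.44) and Stat2 (0.88) differed less than Irf7, which had 105 and 89.1 FPKM in BCR/ABL cells, against 26.5 in the vector control (1.83).

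The untreated library labelled c-Fos-/-Dusp1-/- BCR/ABL was set against untreated wild-type BCR/ABL cells by the same rule, again without a test. There 28 of the 46 genes were lower and 1 higher, where 2.02% of all genes were lower and 3.42% higher. The median log2 difference was -1.28 for the 46 genes and -0.13 for all genes. With imatinib on both sides, 26 genes were lower and 1 higher in the library labelled deleted, where 1.28% of all genes were lower and 1.88% higher, with medians of -1.10 for the 46 and -0.07 for all genes. All 5 IRG GTPases, 5 of 5 GBP GTPases, both genes of the ISG15 system and 6 of 7 effectors were lower without imatinib.

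Iigp1 had 3.06 FPKM in the untreated library labelled deleted, against 23.0 and 24.9 in untreated BCR/ABL cells (log2 difference -2.62). Cmpk2 had 10.1 FPKM in the library labelled deleted, against 53.2 and 52.3 in BCR/ABL cells (-2.27). Gbp6 had 1.73 FPKM in the library labelled deleted, against 10.3 and 11.2 in BCR/ABL cells (-2.10). The vector control had 1.00 FPKM of Iigp1, 6.82 of Cmpk2 and 1.26 of Gbp6, below the library labelled deleted in each. Isg15 had 38.8 FPKM in the library labelled deleted, against 186 and 152 in BCR/ABL cells (-2.08). Igtp had 12.9 FPKM in the library labelled deleted, against 57.0 and 58.2 in BCR/ABL cells (-2.07). The 3 factors were lower by less than the rule asks: Irf7 by 0.77, Irf9 by 0.68 and Stat2 by 0.97 on the log2 scale. Oasl1 also differed by less than the rule asks, at 19.8 FPKM in the library labelled deleted, against 30.8 and 27.5 in BCR/ABL cells (-0.53), and 2.98 in the vector control.

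Ifi202b was the one gene of the 46 counted as higher in the libraries labelled deleted. It passed the filter on low values only through those 2 libraries, so the count of 1 higher rests on it alone. It had 8.65 FPKM in the one with imatinib and 11.7 in the one without, against 0 to 0.0188 FPKM in the other 9 libraries. Its expression is known to differ between inbred mouse strains, and it is little expressed in C57BL/6. The labels give C57BL/6 for all 11 libraries, and a part of strain differences in the other genes was not tested. Its neighbour Ifi203 had 9.68 FPKM in the untreated library labelled deleted, against 18.1 and 21.4 in BCR/ABL cells (-0.95).

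**Figure D4:**
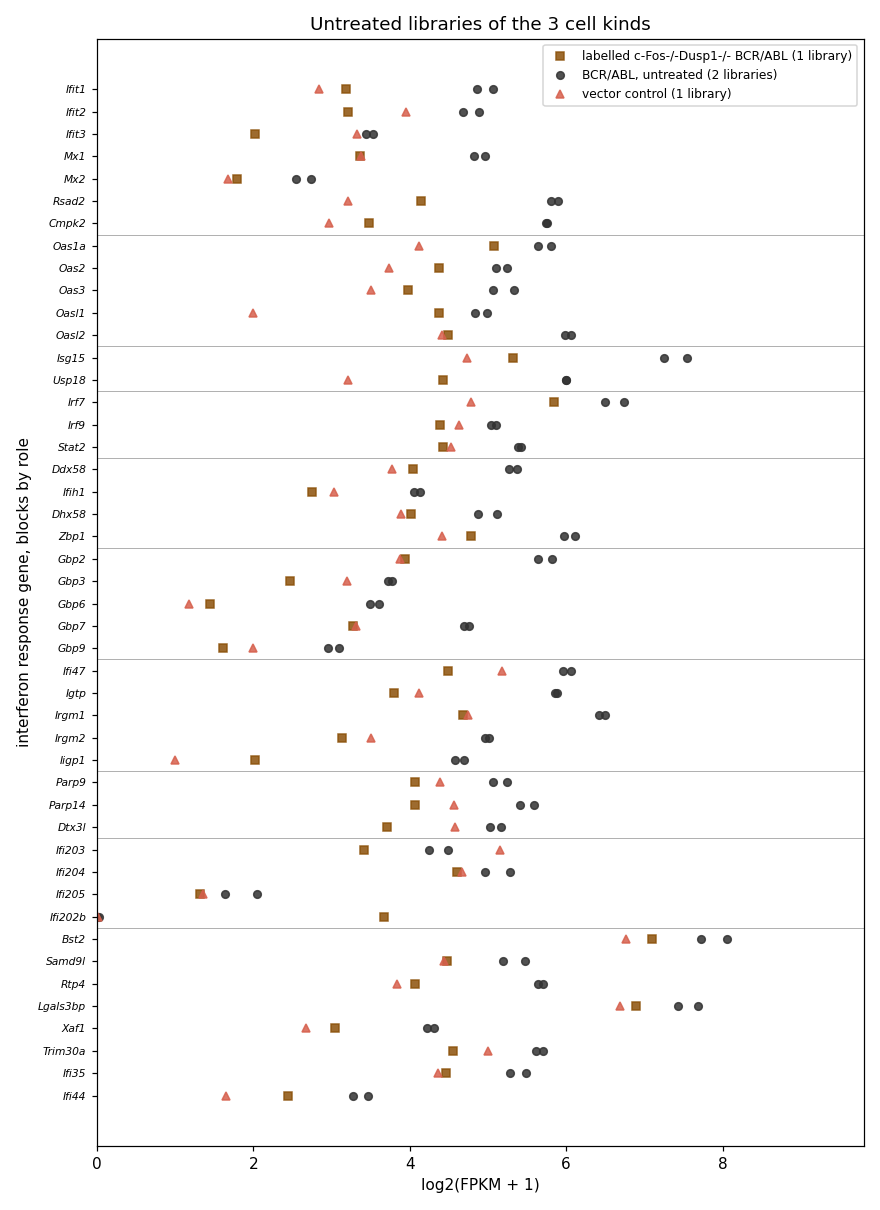
Level of the 46 genes (vertical axis, in blocks by role) as log2(FPKM + 1) (horizontal axis) in the untreated library labelled c-Fos-/-Dusp1-/- BCR/ABL (brown squares), the 2 untreated BCR/ABL libraries (black circles) and the vector control (red triangles). Squares and triangles lie left of the circles for most genes; Ifi202b has its square at the right with all other marks near 0, and Ifi203 has its triangle on the right.

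Imatinib in the cells labelled deleted was compared through 1 library each. By the rule 0 of the 46 genes were higher and 0 lower, where 0.105% of all genes were higher and 0.271% lower. The median log2 difference was -0.14 for the 46 and 0.05 for all genes, and 36 of the 46 were below 0. Iigp1 had 1.66 FPKM with imatinib and 3.06 without it in the cells labelled deleted (-0.61). Ifit1 had 5.63 FPKM with imatinib and 8.10 without it (-0.46), and Igtp 9.53 with and 12.9 without (-0.40). These 3 genes also had the 3 largest falls with imatinib in wild-type BCR/ABL cells.

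Genes of the pathway outside the 46 were counted from lists of ligands, receptors, sensors and brakes. None of 10 interferon ligands passed the filter. Ifnb1 was at 0 to 0.643 FPKM and Ifng at 0 to 1.05 FPKM over the 11 libraries. Ifng had 0.196 and 0.139 FPKM in the libraries labelled deleted, 0.498 and 0.596 with all 3 drugs, 0.931 and 0.549 with DFC+BCI, 0.544 and 0.397 with imatinib, 0.644 and 1.05 in untreated BCR/ABL cells, and 0 in the vector control. These low values were highest in 1 untreated library, and DFC+BCI overlapped untreated cells. They were not tested, and interferon protein was not measured. Of 8 receptors and kinases, 0 passed with imatinib, 4 fell and 1 rose with DFC+BCI, and 4 fell and 0 rose with all 3 drugs. Of all genes, 18.4% fell and 17.8% rose with DFC+BCI, and 15.6% fell and 17.2% rose with all 3 drugs. Ifngr2, a chain of the type II receptor, had 25.5 and 24.4 FPKM with all 3 drugs, 29.9 and 28.5 with DFC+BCI, 42.5 and 44.0 with imatinib, and 41.8 and 42.1 in untreated cells. Ifnar1, a chain of the type I receptor, had 13.4 and 13.5 FPKM with all 3 drugs, 13.4 and 11.8 with DFC+BCI, 17.0 and 17.4 with imatinib, and 16.4 and 15.8 in untreated cells. Both chains were lower in the DFC+BCI groups, by 0.51 and 0.34 on the log2 scale with DFC+BCI alone, and Ifnar2 (-0.11) did not pass.

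Ifnar1 was higher in the libraries labelled deleted, with 34.1 and 40.7 FPKM, against 15.8 to 17.4 FPKM in BCR/ABL cells with imatinib or no drug. It was also higher in the vector control, at 27.3 FPKM. Irf1, an early target of type II interferon, had 155 and 151 FPKM with all 3 drugs, 157 and 151 with DFC+BCI, 50.8 and 58.6 with imatinib, and 53.4 and 47.5 in untreated cells. Irf1 rose with DFC+BCI (1.59, SE 0.09, adjusted p = 2.81e-05), while 24 of the 46 genes fell.

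Among 6 brakes on the pathway, 2 fell with imatinib, where 1.63% of all genes fell. With DFC+BCI 2 fell and 1 rose, where 18.4% of all genes fell and 17.8% rose. Socs1, which blocks the receptor kinases, had 18.2 and 13.5 FPKM with all 3 drugs, 36.0 and 35.1 with DFC+BCI, 13.9 and 17.1 with imatinib, and 80.1 and 63.9 in untreated cells. It was low in every group given imatinib, and fell with imatinib (-2.14, SE 0.16, adjusted p = 0.00163) and with DFC+BCI (-0.99, SE 0.16, adjusted p = 0.00364). Socs3, which brakes IL-6 family signals, had 63.1 and 54.4 FPKM with all 3 drugs, 88.9 and 87.6 with DFC+BCI, 11.5 and 13.9 with imatinib, and 23.9 and 19.8 in untreated cells. It rose with DFC+BCI (1.97, SE 0.12) and fell with imatinib (-0.74, SE 0.12, adjusted p = 0.0328).

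Of 10 sensors and adaptors, 3 rose and 2 fell with DFC+BCI, where 17.8% of all genes rose and 18.4% fell. Mb21d1 (cGAS), which senses DNA, had 23.1 and 22.1 FPKM with all 3 drugs, 26.9 and 29.6 with DFC+BCI, 11.02 and 10.9 with imatinib, and 12.9 and 13.9 in untreated cells. Mb21d1 rose with DFC+BCI (1.02, SE 0.07). Tlr7, which senses RNA inside vesicles, had 4.34 and 4.59 FPKM with all 3 drugs, 4.74 and 4.45 with DFC+BCI, 10.9 and 10.3 with imatinib, and 7.39 and 9.69 in untreated cells. Tlr7 fell with DFC+BCI (-0.76, SE 0.11). The single call with imatinib was a fall of the adaptor Myd88 (-0.40).

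Markers of other cell types were summed in each library. The 8 neutrophil markers (8 of 8 at 1 FPKM or more somewhere) summed to 12678 to 14139 FPKM in the libraries labelled deleted, 12771 to 14003 FPKM in the groups given DFC+BCI, 21169 to 23775 FPKM with imatinib or no drug, and 3738 FPKM in the vector control. Most of that sum was S100a8 and S100a9, and other markers on the list followed it in part or not at all. Ctsg had 139 and 105 FPKM in the libraries labelled deleted, 173 to 203 in the groups given DFC+BCI and 275 to 334 with imatinib or no drug. In the vector control, where the sum was lowest, Ctsg had 348 FPKM. Mpo had 33.5 and 23.1 FPKM in the libraries labelled deleted, 177 to 221 in the groups given DFC+BCI, 177 to 234 with imatinib or no drug, and 637 in the vector control. Camp had 228 and 179 FPKM in the libraries labelled deleted, 162 to 177 FPKM in the groups given DFC+BCI, 171 to 198 FPKM with imatinib or no drug, and 9.81 FPKM in the vector control. The monocyte and macrophage markers, 9 of 10 detected, summed to 1166 to 1254 FPKM in the libraries labelled deleted, 1186 to 1251 FPKM in the groups given DFC+BCI, 1385 to 1454 FPKM with imatinib or no drug, and 1445 FPKM in the vector control. The 6 stem and progenitor markers summed to 68.9 to 75.9 FPKM in the libraries labelled deleted, 83.7 to 96.0 FPKM in the groups given DFC+BCI, 129 to 141 FPKM with imatinib or no drug, and 262 FPKM in the vector control. Mast and basophil markers, 4 of 4 detected, summed to 91.7 to 124 FPKM in the libraries labelled deleted, 430 to 583 FPKM in the other BCR/ABL libraries and 1452 FPKM in the vector control. The neutrophil, monocyte and stem sums were thus lower in the groups given DFC+BCI than with imatinib or no drug, while imatinib and untreated cells lay close together in all 3. The part of these differences in the results was not tested. Markers of plasmacytoid and other dendritic cells, a known source of type I interferon, summed to 17.6 to 17.9 FPKM in the libraries labelled deleted, 8.11 to 10.4 FPKM in the other BCR/ABL libraries and 124 FPKM in the vector control. In the libraries labelled deleted most of that sum was Itgax (13.3 and 14.5 FPKM). The plasmacytoid markers Siglech and Ccr9 were at 0.0339 FPKM or less there. In the vector control most of it was Cox6a2 (62.1 FPKM) and Flt3 (40.9 FPKM), and Flt3 is also on the stem and progenitor list. Siglech and Ccr9 had 8.80 and 2.34 FPKM in the vector control, against 0.0804 FPKM or less in every BCR/ABL library. The part of dendritic cells in the differences from the vector control was not tested. Of the T and NK markers 6 of 7, of the B markers 4 of 5 and of the stromal and endothelial markers 5 of 5 were under 1 FPKM in every library, among them Cd3e and Col1a1.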

How the data were processed

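RNA of 11 libraries of mouse Kit+ bone marrow cells was sequenced from stranded mRNA libraries, as the labels' protocols state. Per the submitters' processing notes, the authors used TopHat and Cufflinks with mm10 (versions not stated). No unit stands in the file header; from their form, the deposited values were read as FPKM. Of 23444 rows, 5019 were 0 everywhere and 27 had a date for a symbol. An exact 0 can be a failed estimate. Tests used log2(FPKM + 1) without further scaling, so changes of low genes are understated. Genes with at least 1 FPKM in 2 libraries were kept. limma 3.58.1 in R 4.3.3 (trend, 2-sided, Benjamini-Hochberg over 11442 genes) fitted 11 libraries with 1 coefficient per group (4 residual and 3.2 prior degrees of freedom), and was tested on simulated data; every adjusted p is from it. Comparisons with 1 library a group have no test. Genes named in full were those with the largest changes that passed in each comparison (up to 10 with at least 5 FPKM), those largest by the fold rule, and Irf7, Irf9 and Stat2. Other settings tried were a pseudocount of 0.1, no filter, only the groups compared, quantile normalization, median scaling and leaving out each library. The 46 genes and the other lists were chosen with earlier results of these data known. Doses are not given, since their unit is in doubt. Some genes of the pathway and marker lists are not reported here.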

Additional observations from a re-analysis of the deposited data

Results flagged for a closer look

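In 8 genes the duplicates with imatinib all lay below the untreated ones in wild-type BCR/ABL cells, while the library labelled c-Fos-/-Dusp1-/- with imatinib lay above the one without it. The difference between the cells was not tested, since those labelled deleted have 1 library each. The log2 differences in the libraries labelled deleted and in wild-type cells were 0.09 and -0.39 for Isg15, 0.10 and -0.16 for Xaf1, 0.06 and -0.17 for Ifih1, and 0.02 and -0.33 for Gbp2. For Stat2 they were 0.02 and -0.20, for Dtx3l 0.02 and -0.31, for Ifi35 0.01 and -0.23, and for Trim30a 0.01 and -0.12. None of these wild-type changes passed limma's test, and each value in the libraries labelled deleted is small.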

How the results depend on the processing

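No paired analysis was possible because the columns of the deposited table carry letters or no mark, which could not be matched to the replicate numbers in the labels. Of the calls on single genes, 1 of 9 held in all 13 alternatives with imatinib, 20 of 27 with DFC+BCI, 23 of 32 with all 3 drugs and 16 of 20 for all 3 drugs against imatinib; every called sign was kept. With imatinib, the falls numbered 5 after quantile normalization and 1 with only the groups compared in the fit, and the calls over all genes went to 122 without a filter and 27 with only the groups compared, from 241. For all 3 drugs against DFC+BCI, calls over all genes were 7 with only the groups compared (13 in the main fit), and for the interaction 2 without a filter and 11 after quantile normalization (17). With a log2 difference of 0.58 in the fold rule, 38 genes were higher and 1 lower in untreated BCR/ABL cells than in the vector control, 1 was lower with imatinib than in the vector control, and 41 were lower in the imatinib-treated library labelled deleted. The share of all genes past this looser rule was not counted. Leaving out 1 library at a time, calls over all genes ranged 56 to 118 with imatinib, 2132 to 4002 with DFC+BCI, 2319 to 3596 with all 3 drugs, 2555 to 4017 against imatinib, 1 to 7 against DFC+BCI and 2 to 12 for the interaction. The falls among the 46 ranged 3 to 6, 17 to 23, 22 to 28 and 11 to 16 in the first 4 of these. The cause of these changes was not tested. With 2 libraries a group and unknown read depth, small changes may have gone undetected.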

Other observations

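A further 58 genes known to be induced by interferon were counted outside the 46, of which 52 passed the filter. With DFC+BCI 22 fell and 2 rose, with all 3 drugs 22 fell and 0 rose, and with imatinib 3 fell and 0 rose (limma). Of all genes, 18.4% fell and 17.8% rose with DFC+BCI, 15.6% fell and 17.2% rose with all 3 drugs, and 1.63% fell and 0.481% rose with imatinib. Slfn2, a Schlafen protein needed for quiescence of T cells, had 78.2 and 84.3 FPKM with all 3 drugs, 89.3 and 85.7 with DFC+BCI, 156 and 149 with imatinib, and 179 and 176 in untreated cells. The DFC+BCI groups were lowest, and Slfn2 fell with DFC+BCI (-1.01, SE 0.06) and with all 3 drugs (-1.12, SE 0.06). Tgtp1 and Tgtp2, GTPases related to Iigp1 and near-identical to each other, fell with imatinib (-0.76 and -0.64), DFC+BCI (-0.72 and -0.87) and all 3 drugs (-1.22 and -1.21). Tgtp2 had 13.7 and 15.3 FPKM with all 3 drugs, 17.4 and 19.8 with DFC+BCI, 23.8 and 20.4 with imatinib, 32.6 and 37.1 in untreated cells and 2.33 in the vector control.

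The 2 that rose with DFC+BCI were Cxcl10 (0.35) and Trim25 (0.28). Cxcl10, a chemokine for T cells, had 27.6 and 27.6 FPKM with all 3 drugs, 33.0 and 32.0 with DFC+BCI, 19.4 and 20.0 with imatinib, and 24.7 and 26.0 in untreated cells. Of these groups it was lowest with imatinib, where it fell (-0.35). Cxcl10 was lower still in the libraries labelled deleted (6.41 and 7.33 FPKM) and in the vector control (8.52 FPKM). Against the vector control, 16 of the 52 were higher in untreated BCR/ABL cells and 0 lower by the fold rule, where 3.32% of all genes were higher and 4.68% lower. In the untreated library labelled deleted, 13 were lower and 0 higher than in untreated BCR/ABL cells, where 2.02% of all genes were lower and 3.42% higher. Both comparisons rest on 1 library on one side and have no test. Ly6e was listed at 0 in DFC+BCI library b and at 418 to 779 FPKM in the other 10 libraries, so no change is given for it. Of the members with an ISRE core in the promoter window, 12 of 19 fell and 0 rose with DFC+BCI (median -0.32), against 7 of 14 that fell and 2 that rose among those without one (median -0.27). With all 3 drugs, 13 of 19 fell and 0 rose with the core, against 9 of 14 that fell and 2 that rose without it. Of the 13 members with no window found, 5 fell and 1 rose with DFC+BCI, and 7 fell and 1 rose with all 3 drugs. Of all genes, 18.4% fell and 17.8% rose with DFC+BCI, and 15.6% fell and 17.2% rose with all 3 drugs. The difference between members with and without the core was not tested.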
